A study of Mus musculus with 8 samples.

Results

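Among the 29955 gene names in the deposited tables, 38 were names of proteasome subunit genes, that is Psma, Psmb, Psmc or Psmd followed by a number, with Psmb5 left out by the rule. The rule used the name alone and no measured value. The members were 13 subunits of the core particle (7 of the α ring and 6 of the β ring), 3 immunoproteasome subunits, 20 genes of the cap, and Psma8 and Psmb11, core subunits known from testis and thymus.

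RNA-seq libraries were made from bone marrow cells of WT mice and Ripk3-KO mice sorted as LSK (Lin- Sca1+ Kit+) or LK (Lin- Kit+ in the labels, and Sca1- by the study's methods) cells, with 2 libraries in each of the 4 groups. LSK cells hold HSCs and multipotent progenitors, and LK cells hold the myeloid progenitors. The background strain is written CD57BL6/J in the labels, no age of the RNA donors was found in the sources used here, and nothing says whether replicates came from separate mice, so that p-values measure the spread between these libraries, which may be technical. Ripk3-KO mice lack the kinase Ripk3 in the whole animal, so that the sorted cells and the marrow around them carry the same deletion. The labels give no treatment for any of the 4 groups, whereas the methods of the study describe repeated low-dose X-ray irradiation of all mice before the RNA was taken. Which of these holds could not be settled, and it applies to WT and Ripk3-KO mice alike. All WT libraries held Xist reads and all Ripk3-KO libraries held reads of Y-linked genes, so that genotype and sex cannot be told apart in any comparison below.

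Library depth ran from 9782166 to 16280811 reads assigned to genes. The deposited value of a gene, called signal here, is CPM, reads scaled to library size, with a library factor (TMM) that was set separately for LSK and for LK libraries. For comparisons of LSK with LK, the reads were therefore scaled again over all 8 libraries, and the result is called joint CPM. As a check of the labels, the signal of Ripk3 was 162 and 168 in WT LSK cells against 3.38 and 1.08 in Ripk3-KO LSK cells, and 144 and 150 in WT LK cells against 16.2 and 10.6 in Ripk3-KO LK cells. Ly6a, which encodes Sca1, was at 123 to 207 joint CPM in the LSK libraries and at 0.142 to 4.68 in the LK libraries.

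The 26S proteasome is the protease that degrades proteins tagged with ubiquitin. Its barrel-shaped core is built from rings of α subunits, which gate the entry, and rings of β subunits, some of which carry the proteolytic sites. In immune and hematopoietic cells the catalytic β subunits can be replaced by Psmb9 (β1i, in place of Psmb6), Psmb10 (β2i, in place of Psmb7) and Psmb8 (β5i), which gives the immunoproteasome and alters the peptides offered to MHC class I. The cap recognizes the ubiquitin chain and unfolds the substrate. It consists of a base with the ATPases Psmc1 to Psmc6 and a lid with the deubiquitinase Psmd14, and Psmd5, Psmd9 and Psmd10 are chaperones that help to assemble the base and are not part of the finished particle. Transcription of the standard subunits is known to be raised together by Nfe2l1 (Nrf1) through antioxidant response elements, and that of the immunoproteasome genes by interferon through factors that include Irf1. In HSCs, protein synthesis is known to be low, and protein quality control is known to matter for their maintenance.

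Start regions of 5 members are shown because the standard and the immunoproteasome subunits of the β1 position form a measured ratio below, because Psmb8 was among the members with the most reads per length, and because Psma3 and Psmb3 were the members that passed the test between genotypes. Each runs from 250 bases before to 50 bases after the RefSeq transcription start on GRCm38.p6 and is given on the strand of the gene. Capitals mark an antioxidant response element (TGACNNNGC), a CCAAT box or a STAT element (TTCNNNGAA), where N is any base and either strand was searched. The motif letters do not overlap one another in these windows. Psmb6 lies at chr11:70525107-70525406 on the plus strand, Psmb9 at chr17:34187281-34187580 on the minus strand, Psmb8 at chr17:34197945-34198244 on the plus strand, Psma3 at chr12:70974373-70974672 on the plus strand and Psmb3 at chr11:97703184-97703483 on the plus strand.
Psmb6: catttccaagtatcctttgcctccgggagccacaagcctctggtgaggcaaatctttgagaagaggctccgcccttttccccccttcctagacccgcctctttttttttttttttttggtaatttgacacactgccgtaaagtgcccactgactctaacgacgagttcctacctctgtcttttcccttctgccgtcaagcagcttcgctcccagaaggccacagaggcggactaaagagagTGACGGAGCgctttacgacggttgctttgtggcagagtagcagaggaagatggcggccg
Psmb9: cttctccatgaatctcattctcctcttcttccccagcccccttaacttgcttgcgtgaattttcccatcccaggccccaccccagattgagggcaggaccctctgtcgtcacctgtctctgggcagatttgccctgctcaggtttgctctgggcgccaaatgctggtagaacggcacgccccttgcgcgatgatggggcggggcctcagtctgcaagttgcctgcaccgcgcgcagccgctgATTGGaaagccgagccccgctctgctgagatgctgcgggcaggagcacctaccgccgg
Psmb8: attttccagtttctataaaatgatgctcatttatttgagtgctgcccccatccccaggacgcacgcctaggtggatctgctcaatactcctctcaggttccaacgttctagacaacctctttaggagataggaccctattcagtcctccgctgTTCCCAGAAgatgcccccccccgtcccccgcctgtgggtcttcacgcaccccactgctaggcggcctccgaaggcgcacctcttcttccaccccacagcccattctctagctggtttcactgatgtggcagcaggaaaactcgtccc
Psma3: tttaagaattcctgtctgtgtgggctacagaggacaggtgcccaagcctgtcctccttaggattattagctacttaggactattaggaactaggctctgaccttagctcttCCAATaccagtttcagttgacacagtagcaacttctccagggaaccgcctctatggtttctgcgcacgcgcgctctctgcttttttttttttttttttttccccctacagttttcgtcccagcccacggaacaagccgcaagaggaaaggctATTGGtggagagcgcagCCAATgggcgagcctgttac
Psmb3: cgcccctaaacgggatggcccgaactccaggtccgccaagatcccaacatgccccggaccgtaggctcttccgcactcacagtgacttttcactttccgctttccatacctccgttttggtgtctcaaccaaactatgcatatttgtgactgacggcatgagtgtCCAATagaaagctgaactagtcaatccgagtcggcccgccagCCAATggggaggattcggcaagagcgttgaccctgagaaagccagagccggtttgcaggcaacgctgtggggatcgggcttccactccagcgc
RefSeq start regions were found for 31 of the 38 members. The antioxidant response element was present in 4 of them (Psmb6, Psmc6, Psmd9 and Psmd12) and in 12.4% of all 32851 start regions. The CCAAT box was present in 13 members, 6 of 10 core and 5 of 17 cap genes, and in 37.4% of all start regions. Psma3 held 3 CCAAT boxes and Psmb3 held 2. The STAT element was present in Psmb8 and Psmd2 and in 8.30% of all start regions. A member was counted if any of its start regions held the motif, whereas the shares of all are over single start regions. A match is a description of the sequence only.

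The level of a subunit per length was compared as joint CPM per kb of the principal coding transcript (GENCODE M21), a quantity that depends on which transcript is taken as the principal one. The 36 members other than Psma8 and Psmb11 were expressed in every library. In LK cells they ran from 34.1 ± 7.9 (SD, n = 4) for the chaperone Psmd9 to 825 ± 91 for the α ring subunit Psma7, a 24.2-fold range, with a median of 216. In LSK cells they ran from 26.6 ± 4.9 for Psmd9 to 599.6 ± 44.8 for Psmb6, with a median of 142. By class median, core subunits sat above cap genes in both populations, at 274 against 163 in LK cells and 224 against 86.5 in LSK cells. The classes overlapped. The lowest core subunit was at 132 and the highest cap gene at 349 in LK cells, and at 91.8 and 208 in LSK cells.

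Psma7, Psmb6 and Psmb2 held the ranks 1 to 3 in LK cells. In LSK cells the order at the top was Psmb6 (599.6 ± 44.8), Psma7 (574 ± 31), the immunoproteasome subunit Psmb8 (551 ± 63) and Psmb2 (528 ± 59), and these neighbors did not differ beyond their spread. Psmb8 held 533 ± 69 in LK cells and rank 5 there. Psmb9 moved from rank 24 in LK cells (169 ± 24) to rank 9 in LSK cells (214 ± 22), and Psmb10 from rank 25 (151 ± 29) to rank 13 (173 ± 18). The assembly chaperones Psmd9, Psmd5 and Psmd10 were near the bottom in both populations, at 26.6, 39.3 and 49.6 in LSK cells and as the lowest 3 of the 36 in LK cells (34.1, 61.6 and 60.7). Among the subunits of the finished particle, the lid subunit Psmd11 was lowest in LSK cells (44.5 ± 5.3) and in LK cells (85.6 ± 3.5). Psma8 was at 9.82 ± 2.81 joint CPM per kb in LSK cells and 10.3 ± 1.5 in LK cells. Psmb11 had a signal of 0.884 to 1.97 in the LSK libraries and of 0 to 1.40 in the LK libraries, and it passed the filter on low values only in the LSK comparison of genotypes.

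**Figure D1:**
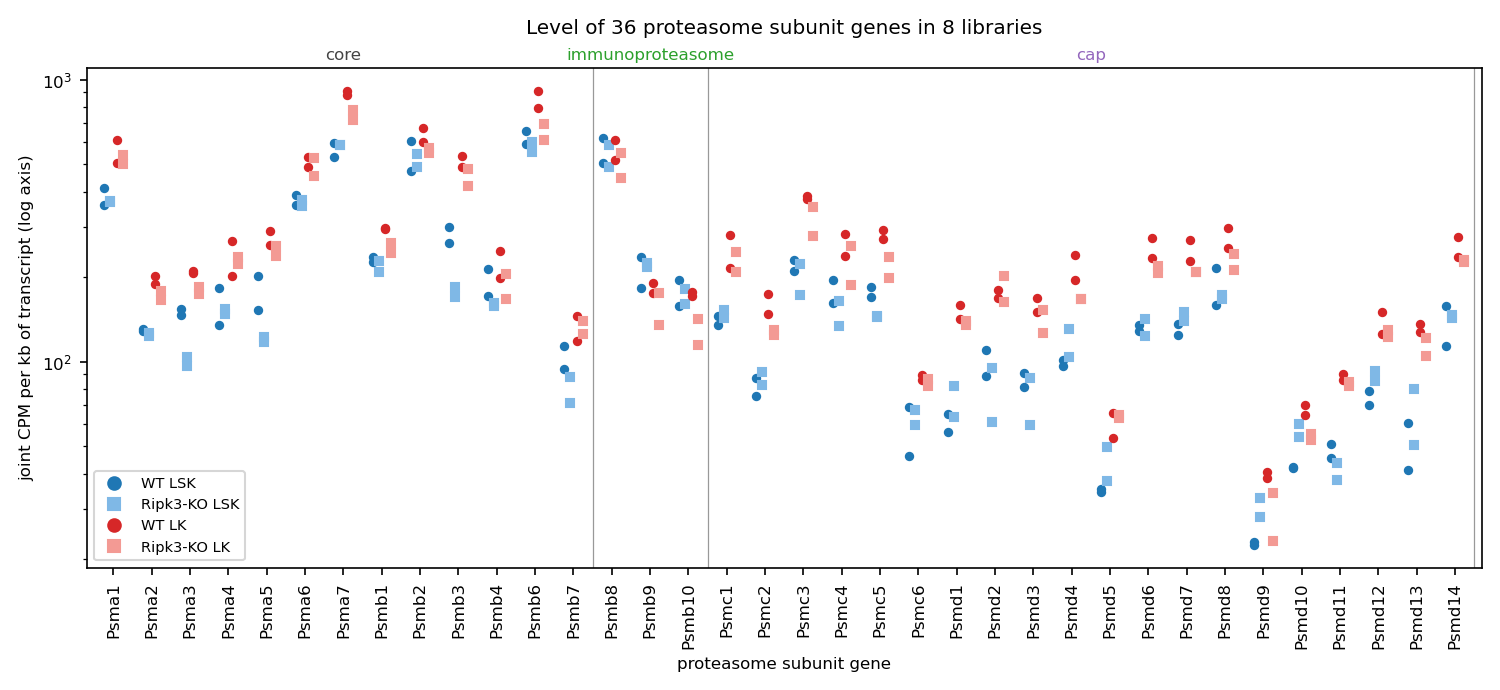
Joint CPM per kb of principal transcript (log axis) of the 36 expressed proteasome subunit genes, grouped as core, immunoproteasome and cap. Each point is 1 of the 8 libraries, circles for WT and squares for Ripk3-KO, blue for LSK and red for LK. Most core and cap genes have their red points above their blue points, while Psmb9 has its LSK points at the height of its LK points or above them.

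LSK and LK cells were compared first within WT and then within Ripk3-KO. In WT, 29 of the 37 members tested were lower in LSK cells than in LK cells at an adjusted p under 0.05 (limma on log2(joint CPM + 1), two-sided, Benjamini-Hochberg over 15950 genes), against 14.8% of all genes tested. No member was higher, against 9.16% of all genes. The median log2 fold change of the members was -0.67, against 0.08 over all genes tested. In these bulk samples, fewer cells of a type and less RNA of a gene per cell cannot be told apart. In Ripk3-KO, 21 of 37 members were lower, against 12.2% of all genes tested, and none was higher, against 7.95%, with a median of -0.53 against 0.00. Both LSK libraries lay below both LK libraries for 31 of 37 members in WT and for 31 of 37 in Ripk3-KO, against 31.2% and 30.1% of all genes.

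The difference was largest in the cap genes in WT, where all 20 passed the test as lower in LSK cells with a median of -0.84 (range -1.39 to -0.55). In Ripk3-KO, 14 of 20 passed, with a median of -0.56. Psmd1, the large scaffold subunit of the base, was at 202 and 174 joint CPM in WT LSK cells, at 440 and 494 in WT LK cells, at 255 and 198 in Ripk3-KO LSK cells and at 419 and 434 in Ripk3-KO LK cells. The LSK libraries of each genotype lay below its LK libraries without overlap, and the log2 fold change was -1.31 ± 0.18 (SE) in WT (limma adjusted p = 1.69e-05) and -0.92 ± 0.18 in Ripk3-KO (adjusted p = 0.000687). The lid subunit Psmd13 had 120.3 and 82.1 joint CPM in WT LSK cells, 270.0 and 253 in WT LK cells, 159.5 and 101 in Ripk3-KO LSK cells and 208 and 241 in Ripk3-KO LK cells. It showed the largest difference of any member in WT (-1.39 ± 0.23), with -0.82 ± 0.23 in Ripk3-KO.

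Psmd14, the deubiquitinase of the lid, was lower in LSK cells of both genotypes (-0.93 ± 0.19 and -0.65 ± 0.19). All 6 ATPases of the base were lower in WT, from -0.98 for Psmc2 to -0.55 for Psmc4, and 5 of 6 in Ripk3-KO, where Psmc6 (-0.41) did not pass. Psmd2, another scaffold of the base, showed the largest difference among cap genes in Ripk3-KO (-1.25 ± 0.20). The 6 cap genes that passed in WT and not in Ripk3-KO were Psmc6, Psmd4, Psmd8, Psmd9, Psmd10 and Psmd12. Psmd9 and Psmd10, both chaperones, had positive values in Ripk3-KO (0.12 ± 0.25 and 0.08 ± 0.23), unlike the other 18 cap genes. Whether the difference between LSK and LK itself differed between genotypes was tested as the interaction below, and no member passed that test.

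The core particle differed less. In WT 9 of 13 core subunits were lower in LSK cells (median -0.47), and in Ripk3-KO 7 of 13 (median -0.46). All 7 α ring subunits passed in WT, from -0.68 for Psma7 to -0.45 for Psma6, and 5 of 7 passed in Ripk3-KO, where Psma6 (-0.42) and Psma7 (-0.36) did not. In the β ring Psmb3 and Psmb6 passed in WT, and Psmb3 and Psmb7 in Ripk3-KO. Psmb3, a structural β subunit without a catalytic site, stood apart. It is also the member with the most pseudogene transcripts (7, described below). Its joint CPM was 202 and 229 in WT LSK cells and 411 and 375 in WT LK cells, and 140.4 and 129 in Ripk3-KO LSK cells against 321 and 369 in Ripk3-KO LK cells. The log2 fold change was -0.87 ± 0.18 in WT (limma adjusted p = 0.00126) and -1.35 ± 0.18 in Ripk3-KO (adjusted p = 8.17e-06), the largest of any member there. Psmb2 (-0.25 and -0.12), Psmb4 (-0.21 in both) and Psmb1 did not pass in either genotype.

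The immunoproteasome subunits did not share the lower values of the core and the cap. Within the core, the β ring came closest to them, with medians of -0.35 in WT and -0.21 in Ripk3-KO. In each genotype 2 of 6 β ring subunits passed. Psmb8 was at 827 and 1010 joint CPM in WT LSK cells and at 998 and 846 in WT LK cells, which overlap (-0.01, 95% confidence interval -0.35 to 0.34). In Ripk3-KO it was at 956 and 797 in LSK cells and at 729 and 895 in LK cells (0.11, interval -0.23 to 0.45). Psmb9 was at 247 and 317 in WT LSK cells and at 257 and 237 in WT LK cells, again overlapping (0.18, interval -0.21 to 0.57). In Ripk3-KO both LSK libraries of Psmb9 (301 and 293) lay above both LK libraries (183 and 237), with a log2 fold change of 0.51 ± 0.19 that missed the threshold in limma (adjusted p = 0.0593) and passed in edgeR's quasi-likelihood test of the recovered reads (adjusted p = 0.0477). Psmb10 showed 0.01 ± 0.19 in WT and 0.41 ± 0.19 in Ripk3-KO, with LSK libraries at 236 and 210.0 above LK libraries at 151 and 185 in the latter. None of the 3 passed the limma test in either genotype, and their medians were 0.01 in WT and 0.41 in Ripk3-KO.

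**Figure D2:**
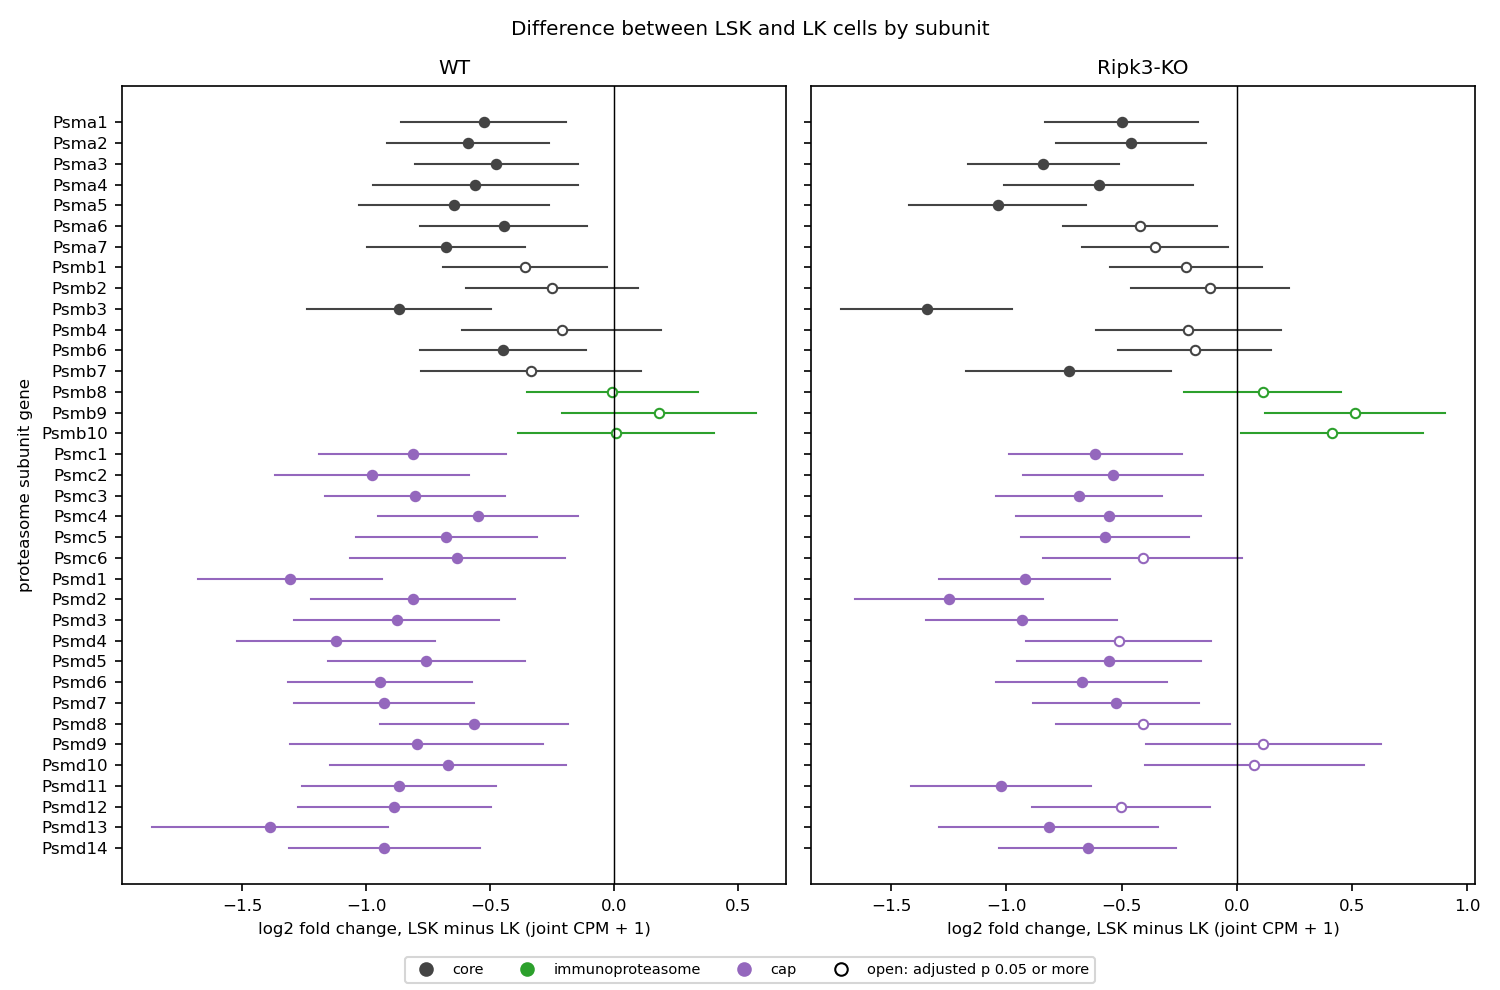
Log2 fold change of LSK minus LK cells for each of 36 proteasome subunit genes, on log2(joint CPM + 1), with WT on the left and Ripk3-KO on the right. Points are limma estimates with 95% confidence intervals, filled where the adjusted p was under 0.05. In WT all 20 cap genes and 9 of 13 core genes are filled on the negative side, and the 3 immunoproteasome genes lie between -0.01 and 0.18.

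The size of these differences depended on how LSK and LK libraries were put on one scale. With CPM and no library factor, all genes tested had a median of 0.46 in WT and 0.29 in Ripk3-KO, and the member medians were -0.25 and -0.21, which is -0.71 and -0.49 relative to all genes, close to -0.75 and -0.53 with TMM. The calls were then 8 lower and 2 higher in WT and 7 lower and 3 higher in Ripk3-KO, the higher ones being immunoproteasome genes. The immunoproteasome median was then 0.43 in WT, against 0.46 over all genes, and 0.73 in Ripk3-KO, against 0.29. In WT that class therefore lay at the level of all genes, not above it. Shares of all genes called under the alternatives of this paragraph are not given here. With quantile normalization, which gives all libraries one distribution, 3 members were lower and 1 higher in WT, and 6 were lower and 3 higher in Ripk3-KO, with medians of -0.15 and -0.16. The cap median was then -0.36 in WT with all 20 genes negative, and the immunoproteasome median was 0.51. Psma3, Psma6 and Psmb6 then had values of 0.0021, 0.073 and 0.0073 in WT, none of which passed the test. With libraries centred on their medians, the immunoproteasome median in WT was -0.11 and that of all genes -0.04, so that the distance from all genes was -0.07 as with TMM. Without a trend in the prior variance 4 and 3 members passed. Leaving out replicate 1 of the WT LSK or LK libraries left 19 or 12 members in WT. In Ripk3-KO, 11 and 6 were left without LSK replicates 1 and 2, and 13 and 7 without LK replicates 1 and 2.

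Ratios of genes within a library do not depend on the library factor. The log2 ratio of Psmb9 to Psmb6, the immunoproteasome and the standard subunit of the β1 position, was -0.93 and -0.73 in WT LSK cells and -0.66 and -0.58 in Ripk3-KO LSK cells. It was -1.50 and -1.41 in WT LK cells and -1.41 and -1.22 in Ripk3-KO LK cells. The 4 LSK libraries lay above the 4 LK libraries, with means of -0.73 ± 0.15 (SD, n = 4) and -1.39 ± 0.12 (n = 4), a difference of 0.66 (exact permutation test, two-sided, p = 0.0286, the smallest p that 4 against 4 can give, and 0.0286 after adjustment over both ratios). The difference was 0.63 in WT alone and 0.69 in Ripk3-KO alone, where 2 against 2 libraries cannot give a p under 0.333. The permutation moved libraries freely between WT and Ripk3-KO. Permuting within genotype, which was not run, could not give a p under 0.05 with these libraries. This ratio was higher in LSK cells in both genotypes.

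The log2 ratio of Psmb10 to Psmb7, the pair of the β2 position, was 0.92 and 0.95 in WT LSK cells and 1.20 and 1.34 in Ripk3-KO LSK cells. In WT LK cells it was 0.76 and 0.42, and in Ripk3-KO LK cells -0.10 and 0.35. All LSK libraries again lay above all LK libraries, with means of 1.10 ± 0.20 and 0.36 ± 0.36 and a difference of 0.74 (exact permutation test, n = 4 per population, p = 0.0286, adjusted 0.0286). The difference was 0.34 in WT and 1.15 in Ripk3-KO. This ratio also differed by genotype, with Ripk3-KO minus WT at 0.34 in LSK cells and -0.47 in LK cells. The permutation did not take genotype into account. With any LSK library left out, the same exact test gave an unadjusted p of 0.0571. That the remaining LSK libraries lay above all LK libraries follows from the full comparison and adds nothing to it. The same reads per kb gave a Psmb9 to Psmb6 ratio of 0.310 to 0.393 in LSK cells and 0.209 to 0.252 in LK cells. They gave a Psmb10 to Psmb7 ratio of 1.68 to 2.25 in LSK cells and 0.822 to 1.50 in LK cells. In both populations standard β1 transcripts outnumbered β1i transcripts per length, while β2i transcripts exceeded β2 transcripts in every LSK library and in all LK libraries but replicate 1 of Ripk3-KO.

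The balance of whole classes within each library was described in the same way, without a test. The median log2 level of the cap genes minus that of the core genes was between -1.13 and -0.95 in the LSK libraries and between -0.80 and -0.58 in the LK libraries. The median of the 3 immunoproteasome genes minus that of the core genes was between -0.61 and -0.27 in the LSK libraries and between -1.36 and -0.99 in the LK libraries. Neither range overlapped between the populations. In relation to the core, cap RNA was lower and immunoproteasome RNA higher in the LSK libraries. Together the 38 members took 1.08% and 1.12% of the reads in WT LSK cells, 1.01% and 1.06% in Ripk3-KO LSK cells, 1.22% and 1.24% in WT LK cells and 1.13% and 1.15% in Ripk3-KO LK cells.

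**Figure D3:**
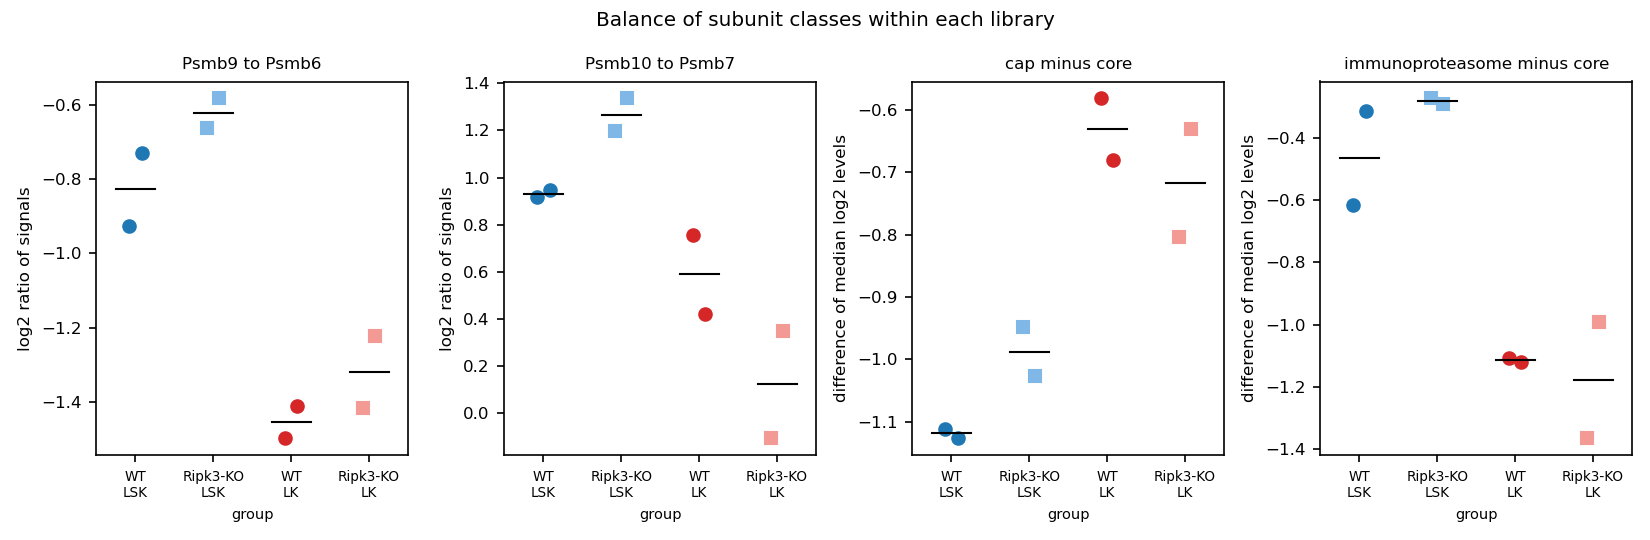
Scale-free balance of subunits within each of the 8 libraries. From left to right the panels show the log2 ratio of Psmb9 to Psmb6, the log2 ratio of Psmb10 to Psmb7, the median log2 level of cap genes minus core genes, and that of immunoproteasome genes minus core genes, with points for libraries and lines for group means of 2 libraries. In each panel the 4 LSK libraries (blue) lie entirely on one side of the 4 LK libraries (red).

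Ripk3-KO and WT mice were compared within LSK cells, which hold stem and multipotent progenitor cells, with genotype and sex not separable. Of the 38 members, 2 were lower in Ripk3-KO LSK cells and 0 were higher at an adjusted p under 0.05 (limma on log2(signal + 1), two-sided, over 16817 genes), against 2.16% of all genes tested and 1.27% for lower genes. At an unadjusted p under 0.05 there were 3 lower and 0 higher, against 9.28% and 8.63% of all genes. Both genes that passed encode core subunits. Psmb3 had a signal of 229.9 and 261 in WT and of 158 and 148 in Ripk3-KO LSK cells (-0.67 ± 0.17, adjusted p = 0.0459). Psma3, an α ring subunit, had 473 and 496 in WT and 309 and 336 in Ripk3-KO (-0.59 ± 0.15, adjusted p = 0.0490). The groups did not overlap for either gene.

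Neither call was firm. Adjusted p-values ran from 0.00540 to 0.248 for Psmb3 and from 0.00447 to 0.285 for Psma3 over the alternatives, both calls were lost in edgeR's quasi-likelihood test (adjusted p = 0.0556 and 0.0651) and when any 1 of the 8 libraries was left out, and both were kept by DESeq2 (0.00540 and 0.00447). Psmb3 has 7 and Psma3 has 3 pseudogene transcripts of at least 90% identity over at least 200 bases, and reads shared with such copies could have been counted in either place. Of the 12 members with such a copy, 2 passed, and of the 26 without one, 0 passed, a count chosen after the calls were seen. Whether shared reads bear on these calls was not tested. Psma5, with 2 such copies, was the next member (215 and 284 in WT, 170.5 and 166 in Ripk3-KO, -0.55 ± 0.18, limma adjusted p = 0.121). For LSK against LK in WT, 11 of 12 members with a copy and 18 of 25 without one were lower, against 14.8% of all genes. In Ripk3-KO these were 9 of 12 and 12 of 25, against 12.2%. Psmb6, part of a ratio above, has 1 such copy, and Psmb9 has 0. Whether shared reads bear on the comparisons of LSK with LK was not tested either.

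By class in LSK cells, log2 fold changes were negative for 12 of 13 core subunits (median -0.09) and positive for 13 of 20 cap genes (median 0.10), and the 3 immunoproteasome genes lay between -0.07 and 0.08. Relative to all genes tested the cap median was 0.11, also with median-centred libraries, which moved the median of all genes to -0.12 and left 9 of 20 cap genes positive. With quantile normalization the immunoproteasome median was 0.12. The assembly chaperones Psmd5 (0.30 ± 0.19), Psmd9 (0.42 ± 0.24) and Psmd10 (0.42 ± 0.23) all had both Ripk3-KO libraries above both WT libraries, and none passed the test. Among all members, 6 had Ripk3-KO above WT without overlap and 9 had it below, against 21.4% and 23.2% of all genes tested, shares close to those of the members. The member median was -0.06 against -0.01 over all genes. For the 36 expressed members the standard error ran from 0.15 to 0.24, and 1 of the 36 intervals (Psmb3) reached a 2-fold decrease and 0 reached a 2-fold increase.

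In LK cells no member passed the test, against 0.473% of the 13949 genes tested by limma, and edgeR and DESeq2 likewise called 0. At an unadjusted p under 0.05 there were 3 lower members, Psmb6 (-0.39), Psmb10 (-0.46) and Psmc5 (-0.40), and 0 higher, against 3.81% and 2.75% of all genes. The members nevertheless leaned one way. Log2 fold changes were negative for 33 of 37 members tested, with a median of -0.20 against 0.01 over all genes, and for 24 of 37 both Ripk3-KO libraries lay below both WT libraries, against 19.9% of all genes. No member had both above, against 20.1%. The class medians were alike, at -0.19 for core, -0.24 for cap and -0.25 for immunoproteasome genes. The median lay between -0.28 and -0.14 when single libraries were left out, and at -0.08 with quantile normalization.

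Psmb6 had a signal of 638 and 561 in WT LK cells and of 430.1 and 484 in Ripk3-KO LK cells. Psmb10 had 204 and 199 in WT and 133 and 161 in Ripk3-KO. Psmc5, an ATPase of the base, had 337 and 318 in WT and 229 and 269 in Ripk3-KO. In these 3 genes the groups did not overlap, and the limma adjusted p-values were 0.572, 0.584 and 0.639. Psmd9 had the largest difference in size (-0.50 ± 0.24, signal of 88.2 and 93.3 in WT, 52.6 and 77.5 in Ripk3-KO, adjusted p = 0.760). The 4 members with positive values were Psmd5 (0.10), Psma8 (0.06), Psmd2 (0.06) and Psmb7 (0.01). The members are not independent of one another, because libraries of one group also differed in one direction across them. Replicate 1 of the WT LK libraries was above replicate 2 in 31 of 37 members (median 0.11), and replicate 1 of the Ripk3-KO LK libraries was above replicate 2 in 12 of 37 (median -0.07).

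**Figure D4:**
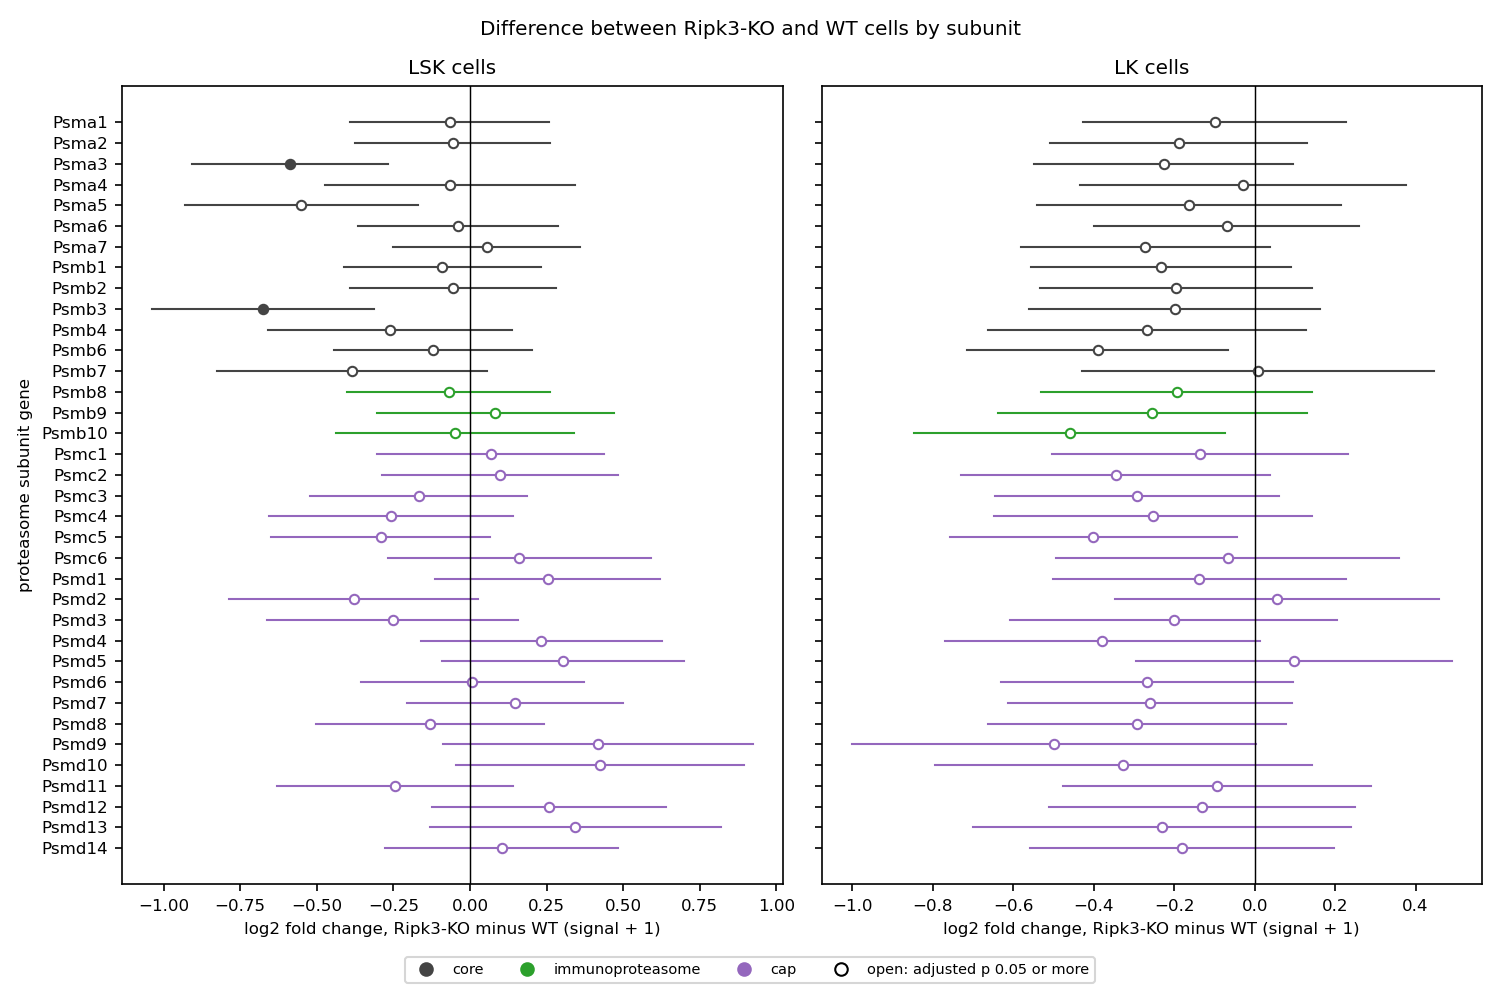
Log2 fold change of Ripk3-KO minus WT for each of 36 proteasome subunit genes, on log2(signal + 1), in LSK cells on the left and LK cells on the right. Points are limma estimates with 95% confidence intervals, filled where the adjusted p was under 0.05. In LSK cells Psma3 and Psmb3 are filled on the negative side and 13 of 20 cap genes are positive (9 of 20 with median-centred libraries, where all genes have a median of -0.12), and in LK cells 33 of 36 estimates are negative and none is filled.

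An interaction term was used to ask whether the difference between genotypes was unlike in the 2 populations, and 0 members passed it, against 0.358% of 15901 genes tested. At an unadjusted p under 0.05, Psmd4, Psmd9 and Psmd10 had larger values in LSK cells and 0 members had smaller ones, against 4.81% and 5.33% of all genes, and edgeR and DESeq2 called 0 at an adjusted p under 0.05. Libraries of the genotypes separated in opposite directions for 4 members, with Ripk3-KO below WT in LK and above it in LSK cells, against 3.89% of the genes tested in both, and for 0 members the other way, against 3.3%. Of the members tested in both populations, 19 had negative values in both, 14 were negative in LK and positive in LSK cells, 3 were the reverse and 1 was positive in both. Over both populations together 0 members passed, against 1.64% of all genes, with 5 lower and 0 higher at an unadjusted p under 0.05, against 6.28% and 7.28%. DESeq2 called 2 and edgeR 0 in that comparison.

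Other genes of the pathway were counted from lists. Of 15 regulators and assembly factors of the proteasome, 7 were lower in LSK than in LK cells in WT, against 14.8% of all genes. In Ripk3-KO 4 were lower, against 12.2%. None was higher in WT or Ripk3-KO, against 9.16% and 7.95%. The lower ones included Psme3 (PA28γ, a nuclear activator of the core), at 146 and 105 joint CPM in WT LSK cells against 437 and 375 in WT LK cells (-1.70), and at 173 and 171 against 364 and 447 in Ripk3-KO (-1.23). The deubiquitinases of the cap Usp14 (-1.09 and -0.75) and Uchl5 (-1.12 and -0.65) and the ubiquitin receptor Adrm1 (-0.64 and -1.15) were lower in both genotypes. Psmg1 (-0.73), Psmg3 (-1.08) and Shfm1 (-0.57) passed in WT only. Psme1 and Psme2, the interferon-inducible activator PA28αβ, did not pass in either genotype (0.18 and -0.30 in WT, 0.38 and -0.36 in Ripk3-KO).

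Between genotypes, Adrm1 was the only gene of that list to pass. Its signal was 108 and 106 in WT LSK cells and 59.1 and 51.5 in Ripk3-KO LSK cells (-0.95, limma adjusted p = 0.0253), and 136 and 125 against 86.9 and 106 in LK cells (-0.44, adjusted p = 0.767). Psme1 and Psme2 lie 0.203 and 0.194 Mb from Ripk3 on chromosome 14, and neither passed in LSK (-0.03 and -0.40) or LK cells (-0.24 and -0.34).

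Among genes of ubiquitin supply and delivery, the ubiquitin gene Ubb was lower in Ripk3-KO LSK cells, with a signal of 4296 and 4809 in WT and 2011 and 2119 in Ripk3-KO (-1.14, limma adjusted p = 6.57e-05), as was the segregase Vcp (-0.66, adjusted p = 0.0482). None of the list passed in LK cells. In LSK against LK cells, Uba1, Vcp and Ubqln1 were lower in both genotypes, Nploc4 in WT and Ubb in Ripk3-KO.

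Among 9 genes that control proteasome genes, Irf1 was lower in Ripk3-KO LK cells (268 and 280.4 against 163 and 166, -0.74, limma adjusted p = 0.0450), and none passed in LSK cells. Calls of list genes, such as Irf1 here and Vcp above, were not followed with libraries left out. Nfe2l1, the activator of standard subunits, was lower in LSK than in LK cells in WT (31.1 and 45.0 against 78.8 and 69.6 joint CPM, -0.97) and at -0.39 in Ripk3-KO, which did not pass. Nlrc5, the transactivator of MHC class I genes, was higher in LSK cells in both genotypes (1.39 and 1.47), Irf8 was lower in both (-2.22 and -2.47), and Irf1 was higher in Ripk3-KO (0.87).

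Among 11 genes of class I peptide presentation, B2m was higher in LSK cells (1.12 in WT and 1.39 in Ripk3-KO), as were H2-K1 (0.50 and 0.84) and, in Ripk3-KO, H2-D1 (0.79). The chaperones Calr, Canx and Pdia3 were lower in LSK cells of both genotypes, and Erap1 in Ripk3-KO. Tap1 and Tap2, the peptide transporters next to Psmb8 and Psmb9 on chromosome 17, did not pass in WT (-0.14 and -0.15) or in Ripk3-KO (0.05 and -0.11). No gene of this list passed between genotypes.

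Markers of other cells moved with some of these comparisons. Of 8 neutrophil granule genes, 6 were higher in Ripk3-KO LSK cells and 5 in Ripk3-KO LK cells, against 0.892% and 0.1% of all genes. Their summed joint CPM was 609 to 663 in WT LSK, 2027 to 2372 in Ripk3-KO LSK, 871 to 887 in WT LK and 1902 to 1917 in Ripk3-KO LK cells. All 8 were above 0 in every library, and S100a8, S100a9 and Ngp were the 3 highest in each. Of 8 immediate-early genes, which respond to handling of cells, 6 were higher in LSK than in LK cells in WT and 7 in Ripk3-KO. The shares of all genes tested were 9.16% and 7.95%. Summed joint CPM of the 8 genes was 17816 to 21771 in the LSK libraries and 8787 to 10908 in the LK libraries. Among erythroid genes, Klf1 (-3.54 in WT and -3.09 in Ripk3-KO) and Epor (-2.22 and -2.50) were lower in LSK cells and Hbb-b1 was higher in Ripk3-KO (3.08). Atf3 was lower in Ripk3-KO LSK cells (-1.37), and Atf3 (-1.18) and Junb (-0.88) were lower in Ripk3-KO LK cells. Of 6 monocyte, macrophage and dendritic cell genes, Cd74, H2-Aa and H2-Ab1, which serve MHC class II, were higher in LSK cells (3.90, 3.93 and 2.52 in WT, 2.72, 3.17 and 2.05 in Ripk3-KO), and Csf1r (-3.00 and -3.58) and Ly86 (-3.28 and -2.63) were lower. Cd74 was also higher in Ripk3-KO LK cells (1.17). None of the tested T and NK cell or megakaryocyte genes passed between genotypes. Between populations, Cd3g was higher and Nkg7 and Itga2b were lower in LSK cells of both genotypes, and Cd4 was higher and Pf4 lower in Ripk3-KO. Flt3, a gene of multipotent progenitors, was higher in Ripk3-KO LSK cells (0.78, limma adjusted p = 0.0298). Their part in the differences of the proteasome genes was not tested.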

How the data were processed

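RNA-seq of sorted LSK and LK cells of WT and Ripk3-KO mice was analysed from the tables the authors deposited. The authors aligned reads with TopHat to mm9 per the submitters' processing notes, and the counting step and its use of strand are not given in the sources used here. The deposited signal values are headed FPKM, but in each library 100% of them were whole multiples, within 0.01, of 1 step, so that whole reads were recovered. They are TMM-scaled CPM without division by length, scaled by the authors separately in LSK and LK libraries (largest difference from edgeR factors 1.7e-12). For population contrasts the reads were rescaled jointly.

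The members and lists were chosen with earlier results of these data known. Tests used limma 3.58.1 (R 4.3.3, trend) on log2(signal + 1) with 4 group means, genes with a mean of at least 1 in the contrast's libraries, and Benjamini-Hochberg adjustment over all genes tested. The planned tests assumed FPKM, and signal took its place. The 2 ratios were tested by exact permutation over all 8 libraries, without regard to genotype. Alternatives were another pseudocount (0.1), another filter (none, or a mean of 5), median centering, quantile normalization, separate fits, no trend, a replicate block, edgeR 4.0.16, DESeq2 1.42.0 and each library left out, and, chosen after seeing the data, CPM without a factor, a crossed block and a pseudogene count (BLAST 2.17.0+). The limma code was tested on simulated data. Named genes were those with an adjusted p under 0.05 in any comparison, Psmb6 to Psmb10, the largest 3 changes per class between genotypes and the highest and lowest 3 per kb. Psmd4, Psmd7, Psmd9 and Psmd10 are also named because their groups separated in opposite directions. Positions are from GENCODE M21 (GRCm38). Some genes of the lists are not reported here.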

Additional observations from a re-analysis of the deposited data

Results flagged for a closer look

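For 4 cap genes, both Ripk3-KO libraries lay below both WT libraries in LK cells and above both in LSK cells, against 3.89% of the 13746 genes tested in both populations, and 0 members had the reverse, against 3.3%. The difference of the 2 genotype effects (LSK minus LK, log2) was 0.61 for the ubiquitin receptor Psmd4, 0.41 for the lid subunit Psmd7, 0.92 for the chaperone Psmd9 and 0.75 for the chaperone Psmd10. Tested as an interaction by limma, none of the 4 passed, with adjusted p-values of 0.447, 0.583, 0.371 and 0.434. Psmd9 had a signal of 66.1 and 67.9 in WT and 96.4 and 83.7 in Ripk3-KO LSK cells, and of 88.2 and 93.3 in WT and 52.6 and 77.5 in Ripk3-KO LK cells. Psmd10, which is X-linked in a comparison where genotype and sex cannot be told apart, had 68.2 and 69.1 in WT and 96.9 and 88.3 in Ripk3-KO LSK cells, and 88.2 and 82.1 in WT and 66.3 and 69.0 in Ripk3-KO LK cells.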

How the results depend on the processing

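In LSK cells the count of members called between genotypes went from 2 to 0 with a pseudocount of 0.1, no filter, populations fitted separately, no trend, the replicate block or edgeR, and when any 1 library was left out (0 to 0), and to 1 with quantile normalization. DESeq2 called 3. Over both populations it went from 0 to 1 with a mean signal of at least 5 and to 2 with median centering or DESeq2. In LK cells and for the interaction it stayed at 0 under every alternative.

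For LSK against LK in WT, 29 members became 4 with quantile normalization, 4 with no trend, 10 without a library factor and 12 to 29 with single libraries left out, with 19 without WT LSK replicate 1. The median of -0.67 became -0.15 with quantile normalization and -0.25 without a factor. In Ripk3-KO, 21 members became 11 with no filter, 9 with quantile normalization, 3 with no trend, 10 without a library factor, and 6 to 20 with single libraries left out (11 and 6 without LSK replicates 1 and 2, 13 and 7 without LK replicates 1 and 2). The median of -0.53 became -0.67 with median centering, -0.16 and -0.21 under quantile normalization and without a factor, and -0.53 to -0.38 with libraries left out. In WT under quantile normalization the log2 fold changes of Psma3, Psma6 and Psmb6 turned to 0.0021, 0.073 and 0.0073. That of Psmb8 in WT was 0.42 without a library factor, where the median over all genes was 0.46. The cause was not tested.

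Same-numbered libraries did not deviate together (correlations of -0.01, -0.09, -0.02 and -0.14 across genes). This gave no sign that the numbers pair them, but 2 libraries per group cannot exclude it. With the replicate block 13 members were lower in Ripk3-KO LSK cells than in LK cells, and with crossed pairs, chosen after seeing these data, 25. The Psmb10 to Psmb7 difference was 0.34 in WT and 1.15 in Ripk3-KO alone, and 0.59 to 0.88 with libraries left out, where an exact test passed only without an LK library, and that of Psmb9 to Psmb6 was 0.61 to 0.73.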
